A study of Homo sapiens with 282 samples.

Results

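Late cornified envelope (LCE) and small proline-rich (SPRR) genes lie in the epidermal differentiation complex of chromosome 1. In skin, keratinocytes of the outer layers switch these genes on, and transglutaminases cross-link the proteins into the cornified envelope, the tough shell of a dead surface cell. B cells make no such envelope. The genes of LCE group 1 have also been described as targets of p53, the transcription factor that answers DNA damage.

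The account covers 5 genes of LCE group 1 (LCE1B, LCE1C, LCE1D, LCE1E and LCE1F) and SPRR2D, 6 of the 18239 genes with a probe set of their own on the array. All 6 were on the array, each read by the probe set with the highest mean over all arrays. They were chosen by their log2 values in treated arrays against DMSO of the same time, so every difference from DMSO below is a description with no test. Tests were kept for comparisons that did not choose them: the higher against the lower concentration of a compound, medium against DMSO, and the change of a concentration difference with time. The first and the last of these still use the treated arrays from which the genes were chosen. The second uses the DMSO arrays against which they were chosen.

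The cells were OCI-Ly3, an established human B cell lymphoma line, grown as wells of culture plates, 1 line for all groups. RNA from each well was hybridised to an Affymetrix HT HG-U219 array, giving 282 arrays, 94 at each of 6, 12 and 24 h. At each time 8 arrays had 1% DMSO, the vehicle, 2 had medium alone, 6 had methotrexate (100 uM), and 3 each had the other compounds at 2 concentrations. The compounds that act on DNA or its synthesis were doxorubicin hydrochloride (0.101 and 0.03 uM), an anthracycline that traps topoisomerase II, etoposide (0.812 and 0.811 uM), which traps the same enzyme, camptothecin (0.31 and 0.01 uM), which traps topoisomerase I, mitomycin C (2.56 and 0.553 uM), a DNA cross-linker, methotrexate, an antifolate, and aclacinomycin A (0.105 and 0.036 uM), another anthracycline. The others were the histone deacetylase inhibitor trichostatin A (0.143 and 0.114 uM), the translation inhibitor cycloheximide (5.0 and 0.264 uM), H-7, Dihydrochloride (20.2 and 12.4 uM), a kinase inhibitor, geldanamycin (0.032 and 0.001 uM), rapamycin (22 and 13.8 uM), vincristine (0.01 and 0.005 uM), monastrol (100 and 50 uM) and blebbistatin (100 and 10 uM). The labels do not say whether the compound groups held the same 1% DMSO.

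Values are RMA values on a log2 scale, so a difference of 1 is a doubling of signal. Array quality was uneven: 0 of 94 arrays at 6 h, 31 at 12 h and 17 at 24 h had low signal, meaning an upper quartile under 8 or a 3′ minus 5′ difference of the ACTB probe sets over 2. The replicates are wells, and nothing in the labels says that they came from separate cultures, so p-values measure the spread between wells. For methotrexate, the labels number 6 arrays per time with 1, 2 and 3 only, so some may repeat a sample. The labels do not say whether each time was a separate array plate, so time and array set cannot be told apart.

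Of 9 B cell markers measured, 5 (PAX5, CD74, IRF4, BLK and VPREB3) lay above the array median in DMSO at each time and after doxorubicin at 24 h, and CD79A, CD79B, MS4A1 and CD22 did not. Of 11 keratinocyte markers, KRT10 and PERP lay above the median in DMSO at 24 h and in doxorubicin at 0.101 uM, while the keratins KRT5, KRT14 and KRT1 and the desmogleins DSG1 and DSG3 did not. The mean of the keratinocyte list ran from 5.32 to 5.93 over the DMSO arrays and from 5.55 to 5.63 over the doxorubicin arrays at 24 h. With mitomycin C at 2.56 uM at 24 h it ran from 5.5 to 6.47, DSG3 lay above the median as well, and replicate 2 had low signal; SFN lay above in DMSO at 12 h. The part of such signal in the results was not tested.

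The 5 LCE1 genes stand side by side in GRCh38.p14 in the order LCE1F (chr1:152775140-152777024), LCE1E (chr1:152786257-152788426), LCE1D (chr1:152796721-152798181), LCE1C (chr1:152804832-152806651) and LCE1B (chr1:152811971-152813108), within 37969 bases. SPRR2D (chr1:153039732-153041120) lies 226623 bases beyond LCE1B. RefSeq promoter windows, from 250 bases before to 50 bases after the annotated start, were at hand for 4 of the 6 genes, LCE1C, LCE1D, LCE1E and LCE1F. They are shown because all 4 genes lay above DMSO with doxorubicin at 0.101 uM at 24 h, with the runs of at least 12 bases that all 4 share in capitals.

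LCE1C (chr1:152806602-152806901, minus strand): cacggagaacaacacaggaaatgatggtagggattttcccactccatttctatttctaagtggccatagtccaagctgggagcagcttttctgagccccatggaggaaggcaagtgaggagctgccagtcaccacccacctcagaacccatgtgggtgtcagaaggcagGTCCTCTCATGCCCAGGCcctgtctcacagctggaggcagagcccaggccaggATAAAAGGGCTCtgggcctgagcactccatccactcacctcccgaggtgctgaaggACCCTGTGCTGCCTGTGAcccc
LCE1D (chr1:152796471-152796770, plus strand): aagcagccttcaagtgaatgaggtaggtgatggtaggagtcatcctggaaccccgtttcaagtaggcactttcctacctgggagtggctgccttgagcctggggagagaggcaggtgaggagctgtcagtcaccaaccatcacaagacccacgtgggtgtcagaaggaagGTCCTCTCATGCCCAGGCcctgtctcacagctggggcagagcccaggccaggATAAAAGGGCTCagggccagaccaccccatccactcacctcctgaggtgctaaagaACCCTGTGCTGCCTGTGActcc
LCE1E (chr1:152786007-152786306, plus strand): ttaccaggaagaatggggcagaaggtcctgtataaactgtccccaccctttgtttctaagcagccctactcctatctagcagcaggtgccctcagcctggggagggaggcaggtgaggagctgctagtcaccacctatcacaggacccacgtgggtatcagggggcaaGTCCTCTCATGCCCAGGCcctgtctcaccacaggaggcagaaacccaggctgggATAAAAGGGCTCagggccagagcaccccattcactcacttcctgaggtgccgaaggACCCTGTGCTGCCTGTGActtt
LCE1F (chr1:152774890-152775189, plus strand): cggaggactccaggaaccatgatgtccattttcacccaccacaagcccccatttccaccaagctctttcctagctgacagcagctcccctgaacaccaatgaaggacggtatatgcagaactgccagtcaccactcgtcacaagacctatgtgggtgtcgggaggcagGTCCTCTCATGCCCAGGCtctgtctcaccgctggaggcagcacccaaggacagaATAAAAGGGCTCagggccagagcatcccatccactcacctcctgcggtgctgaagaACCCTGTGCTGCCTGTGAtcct

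The 4 windows were 75.7% (LCE1E and LCE1F) to 82.9% (LCE1C and LCE1D) identical over their aligned bases. The run GTCCTCTCATGCCCAGGC had its first base at -82 to -80 from the start and was found in no window but these 4 of the 35093 in the table, searched on both strands. The run ATAAAAGGGCTC began 28 bases before the start in each and occurred in 6 windows, those of LCE3C and CSKMT besides these. The run ACCCTGTGCTGCCTGTGA began 29 bases after the start and was again held by these 4 windows alone. The search for shared runs was added after the sequences had been seen. A p53 half-site matched once, in LCE1E (gggcaagtcc, beginning 88 bases before the start), and 6.64% of all windows held one. TGANTCA, the AP-1 motif, matched in none of the 4 and in 7.71% of all windows, TATAAA in LCE1E alone (11.5% of all windows) and CCAAT in LCE1F alone (34.6%); each was searched on both strands.

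LCE1C gave the widest range of the 6 genes. In the 8 DMSO arrays at 24 h it ran from 7.27 to 8.05 with a median of 7.90, above the array median in 8 of 8. After doxorubicin at 0.101 uM the 3 arrays read 13.15, 13.24 and 13.08, and every one lay above all DMSO arrays. The difference was 5.36 ± 0.26 (log2, SE), or 40.9-fold. In RNA from whole wells, more cells making a transcript and more transcript per cell cannot be told apart.

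LCE1C was likewise high with the other topoisomerase and DNA-directed compounds at 24 h. Mitomycin C at 2.56 uM gave 12.81, 12.58 and 12.89, and camptothecin at 0.01 uM gave 12.23, 12.22 and 12.33. Etoposide at 0.812 uM gave 12.26, 12.20 and 12.16, and doxorubicin at 0.03 uM gave 11.01, 11.13 and 11.08. None of these arrays came near the DMSO range. In methotrexate the 6 arrays ran from 10.54 to 10.86 with a median of 10.69, 2.91 ± 0.21 above DMSO. Aclacinomycin A gave 7.87, 7.80 and 7.78 at 0.105 uM and 7.71, 7.72 and 7.91 at 0.036 uM, inside the DMSO range. Its concentrations differ from those of doxorubicin, so the 2 anthracyclines are given side by side without a test.

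In the order of LCE1C means at 24 h, doxorubicin at 0.101 uM came first (13.16), then mitomycin C at 2.56 uM (12.76) and camptothecin at 0.01 uM (12.26), and the arrays of these 3 groups did not overlap with the next in line, except those of camptothecin with etoposide at 0.812 uM (12.21). Mitomycin C at 0.553 uM (12.08), etoposide at 0.811 uM (11.86) and camptothecin at 0.31 uM (11.83) followed, then doxorubicin at 0.03 uM (11.07), methotrexate (10.71) and medium (8.91). DMSO (7.80) stood at place 22 of 29. Of the 28 neighbouring pairs in this order, 22 overlapped; for LCE1E, 28 of 28 did.

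**Figure D1:**
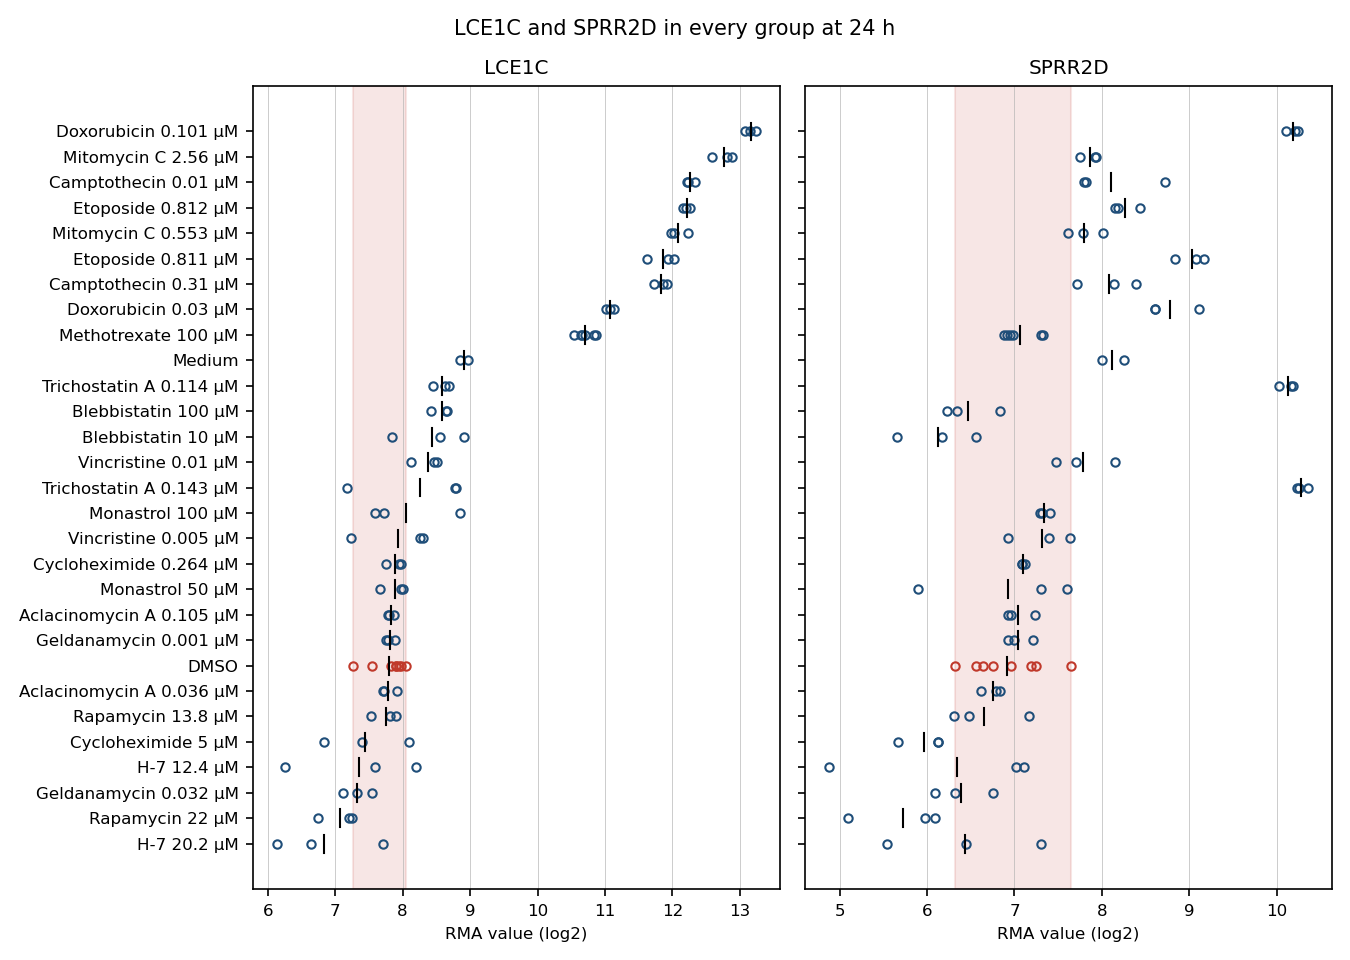
Each circle is 1 array at 24 h, placed by its RMA value (log2) for LCE1C (left) and SPRR2D (right); rows are the 29 groups in the order of their LCE1C mean, black bars are group means, red circles are DMSO and the band is the DMSO range. The LCE1C means of 9 groups of 5 compounds, from doxorubicin 0.101 uM (13.16) to methotrexate (10.71), lie clear of the others, while SPRR2D is highest with trichostatin A and doxorubicin 0.101 uM.

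The remaining LCE1 genes read lower on their probe sets, which says nothing of their level against LCE1C because probe sets differ in response. LCE1F ran from 5.21 to 6.24 in DMSO at 24 h and read 10.14, 10.08 and 10.17 with doxorubicin at 0.101 uM, a difference of 4.50 ± 0.31 with no overlap. LCE1B ran from 4.14 to 4.63 in DMSO, below the median of each of those arrays, and read 7.63, 7.40 and 7.57 with the same treatment, 3.16 ± 0.25 higher. For both genes the doxorubicin arrays lay more than the whole DMSO range above it. LCE1E ran from 5.08 to 5.78 in DMSO and read 7.63, 7.33 and 7.57 (2.00 ± 0.33). LCE1D ran from 6.50 to 7.23 in DMSO and read 8.63, 8.84 and 8.94 (1.79 ± 0.21). Again no doxorubicin array overlapped with DMSO.

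All 6 genes lay above every DMSO array at 24 h with doxorubicin at 0.101 uM, where 11.7% of all genes did so. The same held for 6 of 6 with camptothecin at 0.01 uM (7.13% of all genes), camptothecin at 0.31 uM (10.3%) and etoposide at 0.812 uM (8.39%). It held for 5 of 6 with etoposide at 0.811 uM (3.33%; not LCE1E), mitomycin C at 2.56 uM (1.96%; not LCE1E) and mitomycin C at 0.553 uM (7.11%; not SPRR2D). It held for LCE1B, LCE1C and SPRR2D with doxorubicin at 0.03 uM (7.11%), and for LCE1B and LCE1C with methotrexate (8.59%). With trichostatin A it held for LCE1C, LCE1D and SPRR2D at 0.114 uM (4.59%) and for LCE1D and SPRR2D at 0.143 uM (4.61%). These shares come from the contrasts that chose the genes and are given as a description.

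The median difference of the 6 genes from DMSO at 24 h was 3.22 with doxorubicin at 0.101 uM, against -0.02 over all genes. It was 2.04 with etoposide at 0.811 uM and 1.65 at 0.812 uM, 1.63 with mitomycin C at 2.56 uM and 1.30 at 0.553 uM, and 1.55 with camptothecin at 0.01 uM and 1.43 at 0.31 uM. It was 0.88 with doxorubicin at 0.03 uM and 0.54 with methotrexate. In mitomycin C at 2.56 uM, replicate 2 was a low-signal array: LCE1F read 9.57, 6.35 and 9.70, and its difference from DMSO was 2.92 with that array and 3.95 without the low-signal arrays. LCE1E followed the same split, with 6.32, 5.08 and 7.52, and a difference of 0.79 with and 1.34 without.

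Over the 29 group means at 24 h, LCE1B and LCE1F correlated at r = 0.96, LCE1C and LCE1F at 0.93, and LCE1B and LCE1C at 0.90. LCE1C and LCE1E were at 0.57, and at 0.85 over the 28 groups left without low-signal arrays. SPRR2D correlated less with the LCE1 genes, from 0.32 (LCE1E) to 0.58 (LCE1C). The LCE1 genes did not correlate alike at each time: LCE1C and LCE1E were at 0.04 and LCE1C and LCE1D at 0.28 at 12 h, and LCE1C and LCE1D at 0.42 at 6 h. The points share the arrays of 1 time, and some of the probe sets can bind related transcripts, so these values are a description.

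**Figure D2:**
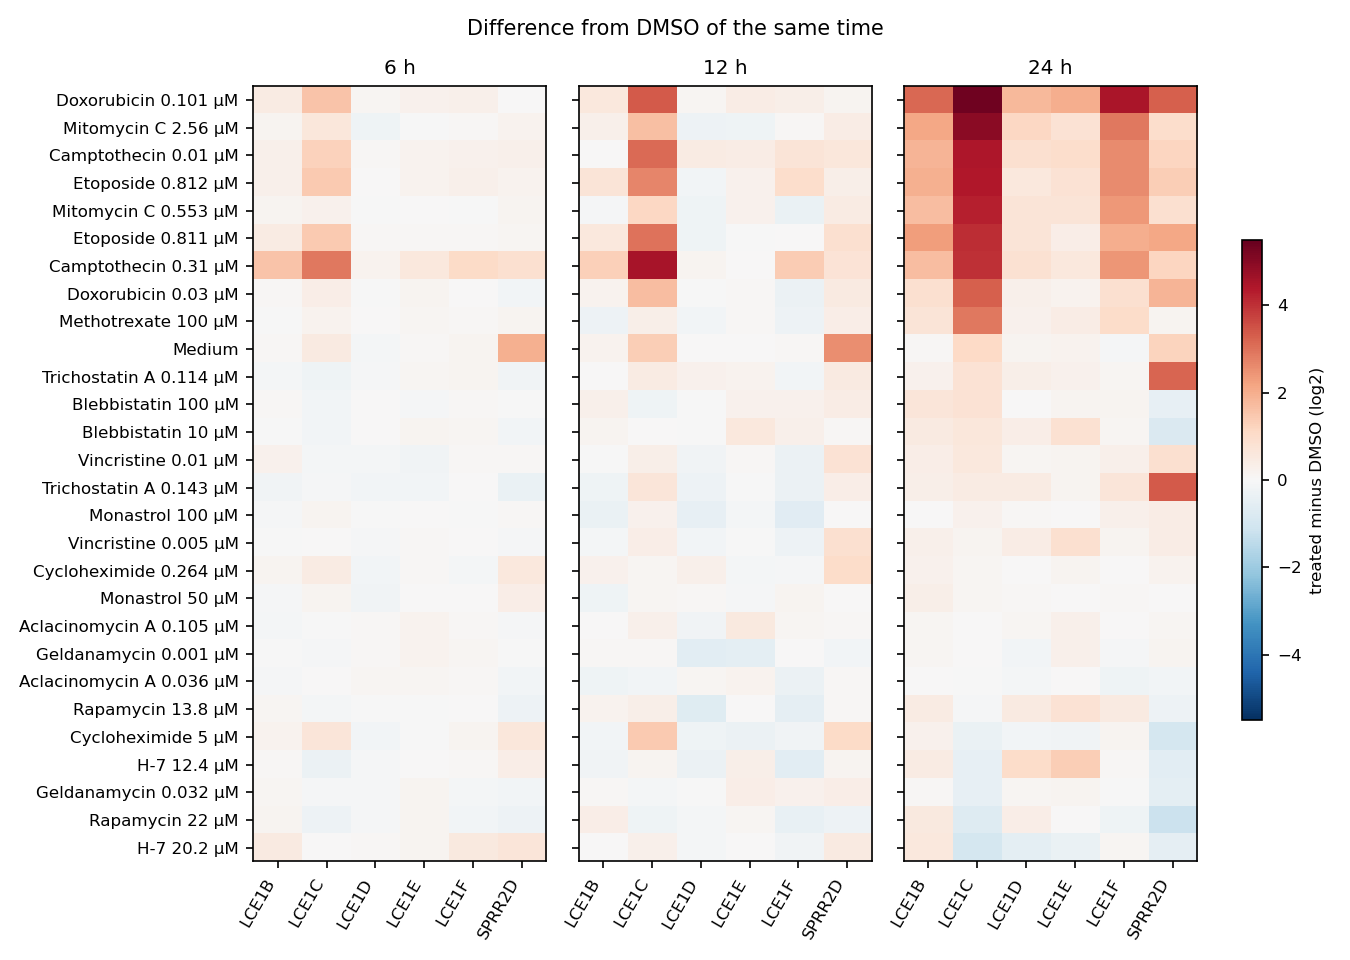
Colour gives the difference of each group mean from DMSO of the same time (log2), for the 6 genes in columns and the 27 compound groups and medium in rows, at 6, 12 and 24 h; rows follow LCE1C at 24 h. At 6 h with camptothecin 0.31 uM, LCE1C (2.92), LCE1B (1.55) and LCE1F (1.04) are already high.

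LCE1C was already high at 6 h with several compounds. At 6 h, when no array had low signal, it ran from 7.50 to 8.09 in DMSO and read 10.92, 10.71 and 10.67 with camptothecin at 0.31 uM (2.92 ± 0.10). Doxorubicin at 0.101 uM gave 9.35, 9.36 and 9.48 (1.55 ± 0.10), and etoposide at 0.811 and 0.812 uM gave differences of 1.45 and 1.43. All of these arrays lay above DMSO. Mitomycin C at 2.56 uM gave 8.49, 8.51 and 8.48, which was also above every DMSO array but by 0.64 ± 0.10 only (3.1% of all genes lay above), and the arrays of methotrexate overlapped with DMSO. Cycloheximide gave 8.48, 8.61 and 8.50 at 5.0 uM (0.68 ± 0.10; 13.6% of all genes above) and 8.35, 8.33 and 8.19 at 0.264 uM (0.44 ± 0.10; 5.26%), again above DMSO.

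LCE1B at 6 h read 6.32, 5.98 and 5.59 with camptothecin at 0.31 uM, against 4.19 to 4.52 in DMSO. LCE1F read 6.64, 6.44 and 6.48, against 5.33 to 5.66, and LCE1E 5.76, 6.01 and 6.19, against 5.15 to 5.70. In that group 5 of the 6 genes lay above DMSO, all but LCE1D, where 21.8% of all genes did. With doxorubicin at 0.101 uM it was LCE1B and LCE1C (4.01% of all genes), and with etoposide at 0.812 uM LCE1B, LCE1C and LCE1F (3.49%) and at 0.811 uM LCE1B and LCE1C (4.42%). With camptothecin at 0.01 uM it was LCE1B, LCE1C and SPRR2D (3.84%). H-7 at 20.2 uM had LCE1B (4.87, 4.82 and 5.02), LCE1F (5.96, 5.84 and 6.18) and SPRR2D (7.25, 7.36 and 7.33) above DMSO, by 0.49, 0.52 and 0.67, where 14.2% of all genes lay above.

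At 12 h the differences of LCE1C from DMSO lay between those of 6 and 24 h with doxorubicin and mitomycin C. Doxorubicin at 0.101 uM read 10.42, 10.65 and 9.69, all 3 low-signal arrays, against 6.24 to 7.75 in DMSO. Camptothecin at 0.31 uM gave 11.24, 11.34 and 11.56 (4.52 ± 0.30, and 4.34 without the low-signal arrays). Cycloheximide at 5.0 uM gave 8.06, 8.45 and 8.40, above DMSO (1.44 ± 0.30, and 1.25 without the low-signal arrays; 8.11% of all genes above). Of the 8 DMSO arrays at 12 h, 4 had low signal. The standard errors of the 6 genes were 0.23 to 0.30 at 12 h and 0.21 to 0.33 at 24 h, against 0.10 to 0.12 at 6 h.

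**Figure D3:**
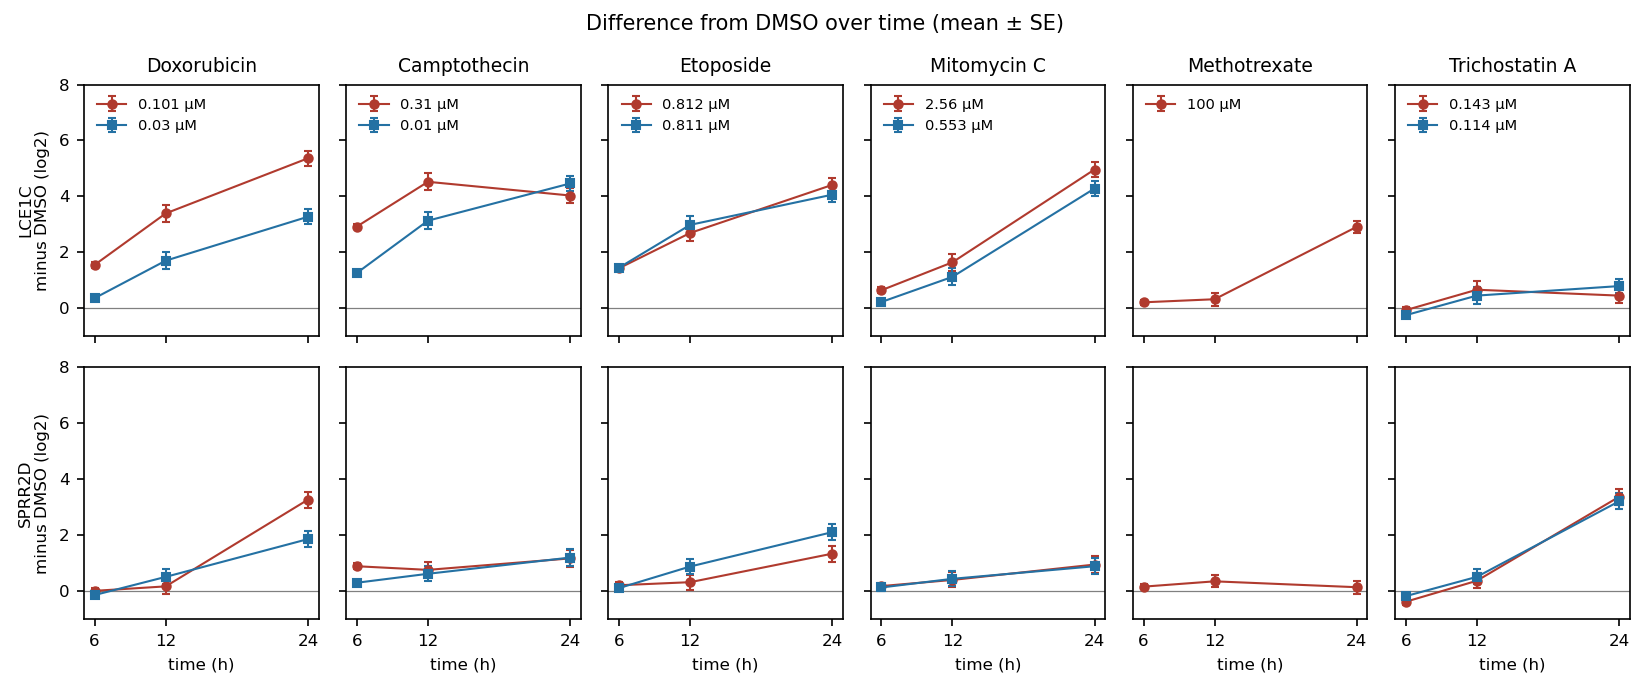
Difference from DMSO of the same time (log2, mean ± SE from limma) at 6, 12 and 24 h for LCE1C (top) and SPRR2D (bottom), with the higher concentration as red circles and the lower as blue squares. LCE1C climbs with doxorubicin 0.101 uM from 1.55 to 5.36, stays between 2.92 and 4.52 with camptothecin 0.31 uM, and reaches 2.91 with methotrexate at 24 h alone, while SPRR2D reaches 3.37 with trichostatin A 0.143 uM at 24 h.

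The concentration of doxorubicin was compared within the treated arrays, and all 6 genes were higher at 0.101 than at 0.03 uM at 24 h (limma, Benjamini-Hochberg adjustment over 18239 genes, called at an adjusted p under 0.05). In all, 42 genes, 0.23%, were called higher in this comparison and 9, 0.0493%, lower. The doxorubicin arrays are among those from which the 6 genes were chosen, so these calls are not independent of that choice. LCE1F read 6.73, 6.62 and 6.17 at the lower concentration and was 3.62 ± 0.37 higher at the higher one (adjusted p = 7.82e-11). LCE1B was 2.29 ± 0.30 higher (1.41e-07), LCE1C 2.08 ± 0.32 (1.22e-05), LCE1D 1.51 ± 0.25 (0.000104), LCE1E 1.78 ± 0.39 (0.0132) and SPRR2D 1.41 ± 0.35 (0.0467). For each gene the 3 arrays of the higher concentration lay above the 3 of the lower. The share of all genes that did so is not given here, so this separation is a description only. Neither doxorubicin group had a low-signal array at 24 h.

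The calls of LCE1B, LCE1C, LCE1D and LCE1F held under each of the alternatives run. That of SPRR2D was lost without replicate 1 of all compound groups (adjusted p = 0.409), without replicate 2 (1) and without replicate 3 (0.106), with the arrays quantile-normalized again (0.33), without any 1 of the 6 methotrexate arrays (0.0516 to 0.0525) and without DMSO replicate 1, 3, 4 or 8 (0.0505 to 0.052), although its difference stayed between 1.31 and 1.66. That of LCE1E was lost without replicate 1 (0.954), without replicate 2 (0.0777) and with quantile normalization again (0.173).

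At 6 h LCE1C alone of the 6 was called between the 2 doxorubicin concentrations, at 9.35, 9.36 and 9.48 against a mean of 8.21 (1.18 ± 0.12, adjusted p = 6.87e-12; 0.762% of all genes were called higher). The doxorubicin concentration difference was larger at 24 h than at 6 h for LCE1F, by 3.41 ± 0.43 (adjusted p = 1.21e-09), and for LCE1B, by 1.92 ± 0.35 (0.000308), in a fit of all 282 arrays that called 7 genes in this contrast (0.0384%). The call of LCE1B was lost without replicate 1 or replicate 3, with an adjusted p of at most 0.194. At 12 h LCE1C was again the only one called (1.70 ± 0.36, adjusted p = 0.0108; 0.236% of all genes), with all 3 arrays at 0.101 uM of low signal, and the call was lost without replicate 1 or replicate 3. For LCE1C the change from 6 to 24 h was 0.90 ± 0.41 and was not called (adjusted p = 1), and without the low-signal arrays all 6 genes were called. The share of all genes called in the fit without those arrays is not given here.

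With camptothecin the concentrations differed early. At 6 h, 5 of the 6 genes were called higher at 0.31 than at 0.01 uM, where 20.9% of all genes were: LCE1C by 1.65 ± 0.12 (adjusted p = 5.33e-21), LCE1B by 1.28 ± 0.12, LCE1F by 0.82 ± 0.12, SPRR2D by 0.59 ± 0.13 and LCE1E by 0.37 ± 0.14 (0.0268; lost without replicate 1, 2 or 3). LCE1D did not pass, at 0.14 ± 0.12. At 12 h LCE1C (1.39 ± 0.36) and LCE1B (1.27 ± 0.28) were called, where 1.04% of all genes were called higher, and both calls were lost without replicate 1 and without replicate 3.

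At 24 h none of the 6 genes was called between the camptothecin concentrations by limma, and 0 had an unadjusted p under 0.05; 3.28% of all genes were called. LCE1C read 11.72, 11.92 and 11.86 at 0.31 uM and 12.23, 12.22 and 12.33 at 0.01 uM, a difference of -0.43 with a 95% interval from -1.06 to 0.21. The fall of this concentration difference from 6 to 24 h was called for LCE1C (-2.08 ± 0.41, adjusted p = 0.000595) and LCE1B (-1.48 ± 0.35, 0.00888), where 0.526% of all genes were called lower. The call of LCE1C was lost without replicate 1 and that of LCE1B without replicate 1 or 3. Replicate 1 of camptothecin at 0.31 uM was a low-signal array at 24 h, and without the low-signal arrays the change of LCE1C was -2.02 and was called.

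The other compounds gave few differences between concentrations. With mitomycin C at 24 h no gene of the 6 was called, and 5.66% of all genes were: LCE1C differed by 0.68 (95% interval 0.05 to 1.32, adjusted p = 0.138) and LCE1F by 0.55 (-0.20 to 1.29). Without the low-signal arrays 4 of the 6 were called, LCE1F at 1.64, LCE1B at 0.94, LCE1C at 0.77 and LCE1D at 0.65. The 5.66% belongs to the fit of all arrays, and the share without the low-signal arrays is not given here. The etoposide labels differ by 0.001 uM and serve as a repeat; at 24 h LCE1C differed by 0.35 (-0.29 to 0.98) and SPRR2D by -0.77 (-1.46 to -0.08), with adjusted p-values of 0.939 and 0.821 in limma's fit, which called 0% of all genes. The SPRR2D arrays of the 2 etoposide groups did not overlap.

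With H-7 at 6 h, LCE1F (0.47 ± 0.12), LCE1B (0.43 ± 0.12) and LCE1C (0.37 ± 0.12) were called higher at 20.2 than at 12.4 uM, where 11.3% of all genes were. The calls of LCE1B and LCE1C were lost without replicate 3, and that of LCE1C also without replicate 2. At 24 h LCE1D (-1.57 ± 0.25) and LCE1E (-1.70 ± 0.39) were called lower at the higher concentration (9.9% of all genes), but all 3 arrays at 12.4 uM had low signal and read 7.57, 8.33 and 8.23 for LCE1D, so no value without such arrays exists; both calls were lost in a fit of the H-7 arrays alone (adjusted p = 0.973). The change of this difference from 6 to 24 h was called too, where 7.58% of all genes were called lower, but not in a fit of the H-7 arrays alone (adjusted p = 0.352 for LCE1D and 0.264 for LCE1E). SPRR2D was lower at 5.0 than at 0.264 uM cycloheximide at 24 h (-1.13 ± 0.35, adjusted p = 0.0349; 3.76% of all genes), where 2 of the 3 arrays at 5.0 uM had low signal; without these it was -0.98 and was called, and it was lost without replicate 1 or 2, with quantile normalization again (adjusted p = 0.254) and on the probe set without the x_at ending (-0.71, 0.133). The call of LCE1E in geldanamycin at 12 h (0.90 ± 0.33; 22.2% of all genes) was lost without the low-signal arrays, at 0.35. In all, 9 of 78 tests of the 6 genes were called at 6 h, all higher, 4 of 78 at 12 h, all higher, and 9 of 78 at 24 h, 6 higher and 3 lower. Over all genes the same 13 contrasts called 8.51%, 2.49% and 2.69%. Without replicate 1 the count at 12 h was 0, and without replicate 3 it was 1.

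**Figure D4:**
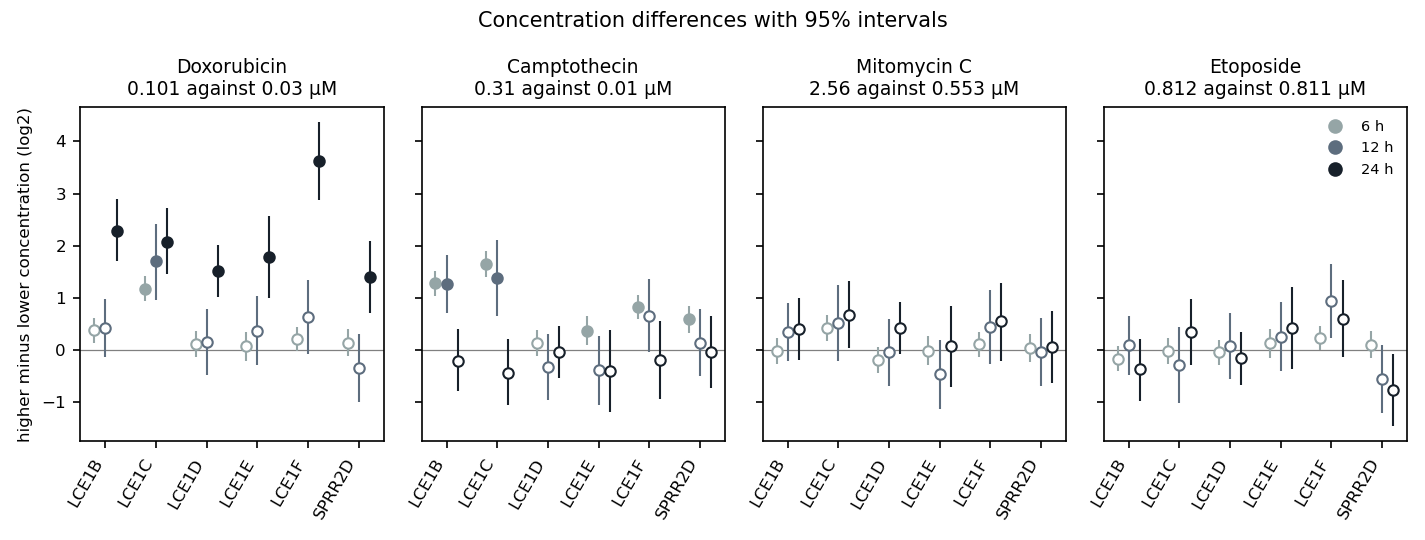
Difference between the higher and the lower concentration (log2) with its 95% interval for the 6 genes, for doxorubicin, camptothecin, mitomycin C and etoposide at 6 h (light), 12 h (mid) and 24 h (dark); filled points passed an adjusted p under 0.05. With doxorubicin all 6 points at 24 h are filled, from 1.41 to 3.62, and with camptothecin the filled points are at 6 and 12 h.

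SPRR2D, a substrate of transglutaminases, had a pattern of its own. In DMSO at 24 h it ran from 6.32 to 7.65 with a median of 6.86. Trichostatin A at 0.143 uM gave 10.36, 10.26 and 10.23, and at 0.114 uM 10.17, 10.19 and 10.03. Both groups lay far above DMSO, at 3.37 ± 0.29 and 3.21 ± 0.29, and as high as doxorubicin at 0.101 uM with 10.24, 10.21 and 10.11 (3.27 ± 0.29). LCE1C in the same trichostatin A arrays read 7.18, 8.79 and 8.78 at 0.143 uM, where replicate 1 had low signal, and 8.63, 8.45 and 8.68 at 0.114 uM (0.79 ± 0.26).

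At 6 h SPRR2D was not high with trichostatin A: the means were 6.26 at 0.143 uM and 6.46 at 0.114 uM, against 6.64 in DMSO. The 2 concentrations differed at 24 h by 0.15, with a 95% interval from -0.54 to 0.84. In methotrexate, where LCE1C averaged 10.71, SPRR2D ran from 6.88 to 7.33, inside the DMSO range. The second probe set of SPRR2D gave the same picture for doxorubicin and trichostatin A at 24 h. Its means were 5.55 in DMSO, 8.86 with doxorubicin at 0.101 uM and 8.67 with trichostatin A at 0.114 uM. The 2 sets differed in other groups. At 24 h mitomycin C at 0.553 uM (0.85, 7.11% of all genes) and vincristine at 0.01 uM (0.98, 2.4%) lay above DMSO on the second set only. At 6 h so did doxorubicin at 0.101 uM (0.28, 4.01%) and etoposide at 0.811 uM (0.34, 4.42%). With camptothecin at 0.01 uM at 6 h the second set overlapped with DMSO (0.14).

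Medium alone was set against DMSO to see where the vehicle itself stood. At 6 h the 2 medium arrays read 8.63 and 8.54 for SPRR2D, against 6.41 to 6.74 in the 8 DMSO arrays, and SPRR2D was higher in medium by 1.95 ± 0.13 (limma, adjusted p = 2.38e-23; 11.7% of all genes were called higher). At 12 h the arrays read 7.99 and 8.11 against 4.81 to 6.21, higher by 2.56 ± 0.32 (3.14e-08; 0.351% of all genes). At 24 h they read 8.25 and 8.00 against 6.32 to 7.65, a difference of 1.21 ± 0.34 that was not called (0.0668; 0.537% of all genes), but was without the low-signal arrays, at 1.25. SPRR2D ranked first of 29 groups in medium at 6 h and at 12 h.

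LCE1C was also higher in medium than in DMSO, by 0.48 ± 0.12 at 6 h (adjusted p = 0.00104) and 1.37 ± 0.35 at 12 h (0.0495). The second of these calls was lost under 14 of 24 alternatives, leaving out 4 single DMSO replicates, 5 single methotrexate arrays, replicate 1 and replicate 3 among them. At 24 h the medium arrays read 8.85 and 8.97, above every DMSO array (1.11 ± 0.31, 0.0661), and the difference was called without the low-signal arrays, at 1.03. LCE1B, LCE1D, LCE1E and LCE1F were not called in medium at any time, with differences from -0.11 to 0.19. The medium groups had 2 arrays each, and the DMSO arrays are those against which the genes were chosen.

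**Figure D5:**
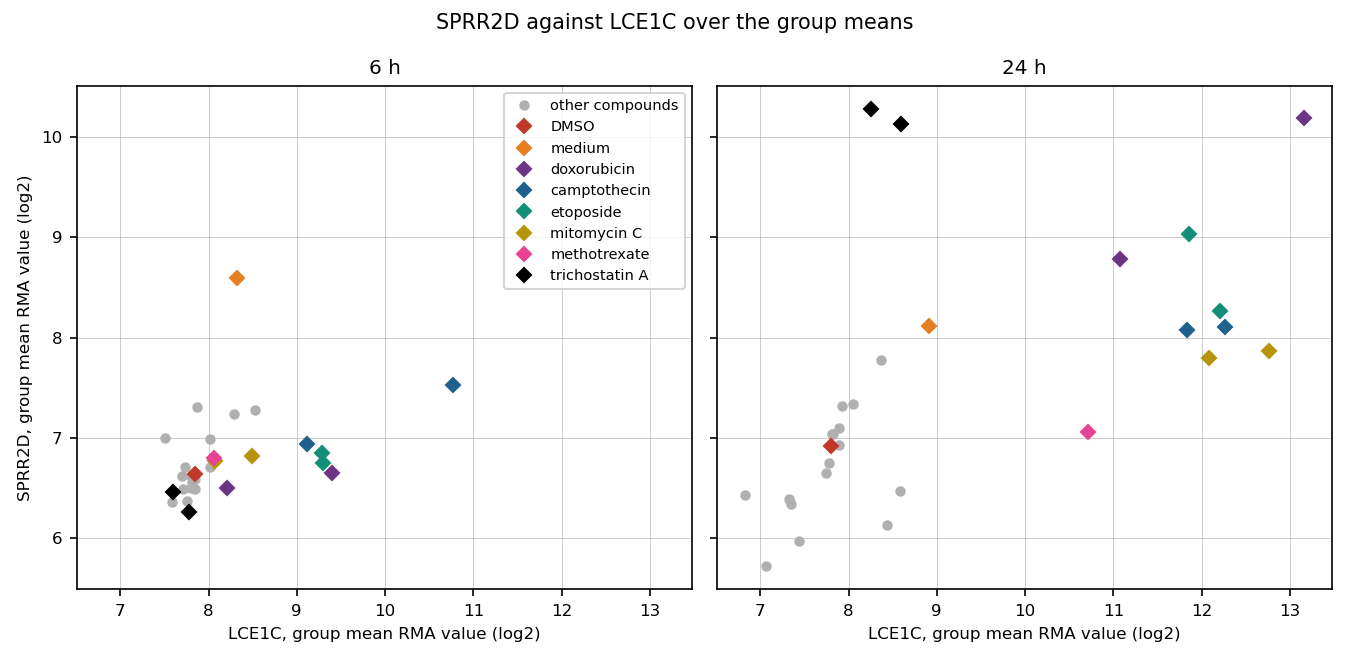
Group means (RMA value, log2) of SPRR2D against LCE1C at 6 h (left) and 24 h (right), 29 groups each; diamonds are named compounds, DMSO and medium, and grey circles the other compounds. At 24 h trichostatin A has SPRR2D at 10.13 and 10.28 with LCE1C at 8.59 and 8.25, methotrexate has LCE1C at 10.71 with SPRR2D at 7.06, and doxorubicin 0.101 uM is high in both.

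In the 16 groups of the other 8 compounds at 24 h, 6 of 96 gene and group pairs lay above all DMSO arrays and 3 below, where 3.17% and 4.01% of all such pairs did, against 49 of 66 above (6.81% of all) in the 11 groups of doxorubicin, camptothecin, etoposide, mitomycin C, methotrexate and trichostatin A. The 11 groups belong to the compounds described above as high, and the genes were chosen by differences of this kind. The contrast of the 2 sets of groups is therefore a description with no test. At 6 h the 16 groups had 9 of 96 pairs above (5.63% of all). At 24 h LCE1C lay above DMSO with blebbistatin at 100 uM (8.58, 0.78 ± 0.26; 3.63% of all genes) and vincristine at 0.01 uM (8.37, 0.57 ± 0.26; 2.4%). In rapamycin at 22 uM it read 7.25, 7.21 and 6.75, below every DMSO array, and SPRR2D read 5.98, 6.09 and 5.09, where 7.56% of all genes lay below; replicate 3 had low signal. SPRR2D also lay below DMSO with cycloheximide at 5.0 uM, at 5.67, 6.12 and 6.12 (-0.95; 9.39% of all genes below), where 2 of the 3 arrays had low signal. On the second probe set of SPRR2D both groups overlapped with DMSO, at -0.56 with rapamycin at 22 uM and -0.36 with cycloheximide at 5.0 uM. H-7 at 12.4 uM had LCE1E (1.34 ± 0.33) and LCE1D (1.03 ± 0.21) above DMSO (11.3%), with all 3 arrays of low signal. Rapamycin at 13.8 uM had LCE1B (0.44 ± 0.25) and LCE1D (0.49 ± 0.21) above (2.98%), and 0.46 and 0.33 without the low-signal arrays. The part of the low signal in these values was not tested.

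Probe sets of this family can pick up more than 1 gene. LCE1B, LCE1F and SPRR2D were read by sets whose names end in x_at and LCE1D by one ending in s_at, endings that mark probes shared with other transcripts; LCE1C and LCE1E had sets ending in at. A pair of sets annotated to LCE1A, LCE1E and LCE1F together, left out of the gene values, differed from DMSO by more than any of the 6 genes with doxorubicin at 0.101 uM at 24 h: one ran from 3.64 to 4.73 in DMSO at 24 h and from 10.27 to 10.44 with doxorubicin at 0.101 uM, a difference of 6.14, and the other differed by 6.39. With doxorubicin at 0.03 uM they differed by 3.03 and 3.17, against 3.27 for LCE1C. With methotrexate at 24 h both lay above every DMSO array, by 3.27 and 3.37, where 8.59% of all genes lay above. The LCE1E and LCE1F sets overlapped with DMSO there, at 0.39 and 0.99. At 6 h the pair differed by 0.97 and 0.77 with doxorubicin at 0.101 uM, and by 1.32 and 1.24 with etoposide at 0.811 uM. Which of the 3 genes they read cannot be told. The LCE1E set itself differed by 2.00 with doxorubicin at 0.101 uM at 24 h. LCE1A had 2 sets, of which one differed by 1.23 and the other by 0.15. A set annotated to SPRR2A and SPRR2F had means of 5.04 in DMSO and 6.97 with trichostatin A at 0.114 uM. Part of a paralog's signal in any of these values was not tested.

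A list of 56 other genes of cornification was drawn up from the epidermal differentiation complex and the envelope's proteins and enzymes, and 52 were measured; SPRR2C, SPRR2F, PRR9 and C1orf68 were not used here. Against DMSO at 24 h, limma called 2 of 52 higher and 1 lower with doxorubicin at 0.101 uM, where 3% of all genes were called higher and 3.07% lower. The list's median difference was 0.09, against -0.02 over all genes. With camptothecin at 0.01 uM 1 was called higher and 1 lower (0.981% and 0.208% of all genes), with methotrexate 0 and 1 (3.42% and 1.32%), and with trichostatin A at 0.114 uM 1 and 0 (0.378% and 0.11%). With mitomycin C at 2.56 uM it was 8 and 1 (7.77% and 18.1%), with replicate 2 of low signal, and with cycloheximide at 5.0 uM 6 and 1 (5.97% and 7.52%), with 2 of 3 arrays of low signal. Without the low-signal arrays the counts became 8 and 1 with doxorubicin at 0.101 uM and 4 and 1 with camptothecin at 0.01 uM. They became 0 and 2 with methotrexate, 4 and 0 with trichostatin A at 0.114 uM and 6 and 2 with mitomycin C at 2.56 uM. The shares of all genes called in that fit are not given here. Over the 27 compound groups, with all arrays, 40 of the 52 genes were called at least once at 24 h, 25 at 6 h and 14 at 12 h.

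ABCA12, the lipid transporter of the lamellar granules, was called higher at 24 h with doxorubicin at 0.101 uM (1.50 ± 0.21, adjusted p = 9.51e-08), mitomycin C at 2.56 uM (1.17), camptothecin at 0.01 uM (0.99) and etoposide at 0.811 uM (0.72). LCE1A, the remaining gene of the group, was called higher with doxorubicin (1.23 ± 0.23), mitomycin C at 2.56 uM (1.05) and camptothecin at 0.31 uM (0.68), on the set described above. It was also called higher with H-7 at 12.4 uM (0.54), where all 3 arrays had low signal. At 6 h LCE1A was called higher with H-7 at 20.2 uM too (0.27), and lower with cycloheximide at 5.0 uM (-0.28). LORICRIN, the main protein of the envelope, was called lower with mitomycin C at 2.56 uM (-0.96 ± 0.19), methotrexate (-0.74 ± 0.15), camptothecin at 0.31 uM (-0.71) and 0.01 uM (-0.68) and doxorubicin at 0.101 uM (-0.66), and also with cycloheximide at 5.0 uM (-0.87), but higher with H-7 at 20.2 uM (0.63). At 6 h it was called higher with H-7 at 20.2 uM (0.67), camptothecin at 0.31 uM (0.47), rapamycin at 13.8 uM (0.41), blebbistatin at 100 uM (0.35), H-7 at 12.4 uM (0.23) and monastrol at 100 uM (0.19). At 6 h LORICRIN fell most with trichostatin A at 0.143 uM (-1.20 ± 0.05, adjusted p = 6e-35), and TGM1, which cross-links the envelope, was higher with camptothecin at 0.31 uM (0.79 ± 0.10), where 7 of the 52 were called higher and 27% of all genes were. S100A10, a protein of the S100 family, was higher with geldanamycin at 0.032 uM at 6 h (0.75) and with camptothecin at 0.31 uM at 24 h (1.24 ± 0.27). Trichostatin A had it higher at 0.114 uM at 6 h (0.62) and 24 h (1.10). At 0.143 uM it was higher at 6 h (0.35) and 12 h (1.45). Its largest difference was with blebbistatin at 100 uM at 12 h (1.70), with all 3 arrays of low signal. Cycloheximide at 5.0 uM had S100A10 lower at 6 h (-0.33). The other genes with the largest called differences at 6 h were LCE1A with camptothecin at 0.31 uM (0.49), SPRR2B with blebbistatin at 100 uM (0.48), S100A8 and LCE3D with H-7 at 20.2 uM (0.47 and 0.43) and PPL, a plakin of the envelope, with trichostatin A at 0.143 uM (0.44).

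Over all 27 compound groups, 63 of 1404 tests of the list were called higher and 7 lower at 24 h, 34 and 12 at 6 h, and 16 and 7 at 12 h, where the sum of 23 became 43 without replicate 2. With the replicate block the sums became 43 in place of 70 at 24 h and 13 in place of 23 at 12 h. Over all genes the shares called higher and lower were 2.45% and 3.34% at 24 h, 7.02% and 6.68% at 6 h, and 1.17% and 1.64% at 12 h. Of the 63 at 24 h, 41 were in H-7: 33 at 12.4 uM, where all 3 arrays had low signal and 27.1% of all genes were called higher, and 8 at 20.2 uM (7.17%). The genes with the largest differences at 24 h were mostly from H-7 at 12.4 uM, S100A8 (2.15 ± 0.34), LCE2D (1.97), S100A9 (1.73), TCHHL1 (1.65), LCE3A (1.56) and FLG (1.43). CSTA, a protease inhibitor of the envelope, was 1.46 higher with H-7 at 20.2 uM, and 0.08 higher without the low-signal arrays. Without the H-7 groups the count at 24 h was 22 higher and 6 lower of 1300. The part of the low signal in the H-7 values was not tested.

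The genes whose pattern was most like that of LCE1C over the 29 group means at 24 h were CEL (r = 0.97), TP53I3 (0.95), PHLDA3 (0.95), VWCE (0.95), PODXL (0.94), NECTIN4 (0.94), FHL2 (0.94), CDKN1A (0.94), BLNK (0.93) and LCE1F (0.93). At 6 h they were FHL2 (0.94), KANK3 (0.91), GPX1, TYMSOS, INKA2 and PIDD1 (0.90 each), XPC and LIF (0.89 each), SDC1 and PHLDA3 (0.88 each). FHL2 and PHLDA3 stand in both lists. A list of p53 targets, 33 of them measured (0.181% of all genes), gave 3 of the first 10 and 11 of the first 50 at 24 h, and 2 and 8 at 6 h. For SPRR2D, a comparison added after its values were seen, 0 of the first 50 were p53 targets at either time, and CCL1 (0.86), AKR1C3 (0.82) and CD52 (0.82) led at 24 h. These correlations describe group means that share the same arrays, and carry no test. LCE1C and the list of p53 targets were both chosen with earlier results of these data known, so their overlap is a description.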

How the data were processed

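The values analysed were the log2 values that the submitters deposited for 282 arrays, background-corrected, normalized and summarised per probe set with RMA, per the submitters' processing notes; its version is not given in the sources used here. RMA is meant to make the arrays' distributions alike, so a shift of all genes on an array may be hidden. The deposited distributions still differed, with upper quartiles from 6.91 to 8.36 at 12 h and from 6.92 to 8.29 at 24 h. Of 49386 probe sets, 45259 carried 1 gene symbol in the platform annotation and 1327 carried several; the latter were left out, as were 2800 with none. Each of 18239 genes was read by 1 probe set, that of the highest mean. No 2 arrays were identical.

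Differences came from limma (version 3.58.1, R 4.3.3; lmFit and eBayes), with 1 fit over all 94 arrays of a time and 1 over all 282 for changes with time. Genes were called at a Benjamini-Hochberg adjusted p under 0.05 over all 18239. No array was dropped or filter applied; the fits were tested on simulated data. Arrays give no read depth, so the number of arrays limits the precision. Tables used Python 3.11.15. Alternatives were quantile normalization again, other probe set rules, a filter on low genes, fits of the compared arrays alone, a replicate block, leaving out low-signal arrays, and leaving out each replicate.

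The 6 genes and all gene lists were chosen with earlier results of these data known. The other cornification genes named were those called in at least 1 compound group, the 8 with the largest difference at 24 h and the same at 6 h. The genes named for likeness were the 10 with the highest Pearson correlation with LCE1C over the 29 group means at 24 h and at 6 h.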

Additional observations from a re-analysis of the deposited data

Results flagged for a closer look

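Of 36 pairs of a gene and a group of 6 or 8 arrays, 4 held an array far from the rest by Dixon's test. That number is to be read against the 1 in 20 that chance gives, and pairs of the same group share its arrays. LCE1B read 4.63 in a methotrexate array of replicate 2 at 6 h, where the others ran from 4.29 to 4.39. LCE1D read 6.50 in DMSO replicate 2 at 24 h, where the others ran from 6.94 to 7.23. LCE1D also read 6.25 in a methotrexate array of replicate 3 at 12 h, against 7.21 to 7.70 in the others, and 7.51 in one of replicate 1 at 24 h, against 7.15 to 7.26.

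The difference between the concentrations of a compound changed from 6 to 24 h in 6 tests of limma's fit over all arrays. With camptothecin it went from 1.28 to -0.20 for LCE1B, a change of -1.48, and from 1.65 to -0.43 for LCE1C, a change of -2.08. With doxorubicin it went from 0.38 to 2.29 for LCE1B, a change of 1.92, and from 0.21 to 3.62 for LCE1F, a change of 3.41. With H-7 it went from 0.13 to -1.57 for LCE1D, a change of -1.70, and from 0.12 to -1.70 for LCE1E, a change of -1.82. All 3 arrays of H-7 at 12.4 uM at 24 h had low signal, and both calls were lost in a fit of the H-7 arrays alone (adjusted p = 0.352 for LCE1D and 0.264 for LCE1E).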

How the results depend on the processing

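Over 24 alternatives, 46 single tests of the 6 genes gave 1090 values, of which 62 lost a call, 13 gained one and 0 changed direction. The tests were all those of medium, and those of concentrations or their change with time already called in the main fit. Only medium tests could therefore gain a call, and gains in other tests are not in the 13. Of 3146 values for 132 differences from DMSO at 6 and 24 h, 68 had another sign after rounding. The count of calls on the change of a concentration difference went from 6 to 10 with the compared arrays alone and to 11 without the low-signal arrays. The filter on low genes removed LCE1B and left 162 tests of other cornification genes at each time in place of 1404; calls went from 46 to 22 at 6 h, 23 to 8 at 12 h and 70 to 16 at 24 h. Without the low-signal arrays those at 12 h were 39; the cause was not tested. Over the 5 genes left by the filter the median difference from DMSO at 24 h was 1.17 with camptothecin at 0.31 uM, 1.20 at 0.01 uM, 1.34 with etoposide at 0.812 uM, 1.15 with mitomycin C at 2.56 uM and 0.89 at 0.553 uM.

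Equal replicate numbers did not mark paired wells: of 117 pairs over the concentration contrasts, 25 had deviations correlated above 0.1. With the replicate block the calls between concentrations stayed at 9, 4 and 9 at 6, 12 and 24 h, and those of other cornification genes became 66, 13 and 43. The median with the block was 3.46 with doxorubicin at 0.101 uM and 1.68 with camptothecin at 0.31 uM.

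Leaving out 1 replicate at a time gave 6 to 9 calls between concentrations at 6 h, 0 to 5 at 12 h and 6 to 9 at 24 h, 3 to 5 for medium, 3 (without replicate 1) to 7 for the change with time, and 34 to 48, 18 to 43 and 53 to 78 for other cornification genes at 6, 12 and 24 h. The median of the 6 genes at 24 h ran from 3.16 to 3.26 with doxorubicin at 0.101 uM and 0.79 to 0.99 at 0.03 uM, 1.31 to 1.61 with camptothecin at 0.31 uM and 1.45 to 1.76 at 0.01 uM, 1.59 to 1.69 with etoposide at 0.812 uM and 1.82 to 2.15 at 0.811 uM, 1.42 to 2.03 with mitomycin C at 2.56 uM and 1.04 to 1.59 at 0.553 uM, 0.49 to 0.59 with methotrexate, and 0.37 to 0.57 with trichostatin A at 0.143 uM and 0.23 to 0.35 at 0.114 uM. In DMSO at 24 h only LCE1C exceeded the highest nonspecific control probe set of its array, on 6 of 8 arrays, so levels of the other genes in DMSO may be near background and their differences understated.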
